A study of Homo sapiens with 4 samples.

Results

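The NF-kB subunits and their feedback inhibitors were examined on expression arrays of DAOY cells, an established human medulloblastoma line, after hairpins against the transcription factor ZFX. The set was named gene by gene, 10 genes in all: the 5 subunit genes NFKB1, NFKB2, REL, RELA and RELB, the 3 IkB genes NFKBIA, NFKBIE and NFKBIZ, and the feedback genes TNFAIP3 and BIRC3. Of these, 9 had a probe set that the platform annotation pairs with exactly 1 symbol, 1 probe set each, among 18417 genes so paired. BIRC3, which encodes the ubiquitin ligase cIAP2, did not match such a probe set and was not analysed here. All 9 measured genes passed the filter on low intensities, which kept 13813 genes.

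In all, 4 samples were used, with 1 array each. Genotype ZFX KD covered 3 of them, transduced with lentivirus for the anti-ZFX shRNA H2, H3 or H4. The fourth, genotype Ctrl, received lentivirus for a non-targeting scrambled shRNA (SCR) and is called the control. All 4 were exposed to virus for 16 to 24 hours, recovered for 48 hours and spent about 48 hours in 2 ug/mL puromycin before RNA was taken, so the control had the same virus type and drug. No inflammatory stimulus is named in the labels. Nothing in the labels says that any transduction was repeated, so the spread below is that between hairpins and may include effects of a single hairpin.

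NF-kB is a family of dimeric transcription factors that IkB proteins hold inactive in the cytoplasm of resting cells. Receptors for tumour necrosis factor, interleukin 1 and microbial products activate the IKK kinases, which mark IkB for destruction, and the freed dimers enter the nucleus. NFKBIA, NFKBIE, NFKBIZ, TNFAIP3, BIRC3 and several subunit genes are themselves transcribed in response to NF-kB, which makes them feedback genes as well as parts of the pathway. RELA protein is controlled mainly by where it is in the cell, so an mRNA level does not report its activity.

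The promoters of these genes are shown because the members differ in whether the letters of an NF-kB site lie close to the start. The RefSeq promoter table (GRCh38.p14) held 13 promoters for 8 of the 10 genes, and RELB and NFKBIE did not match. The 250 bases before each start were searched on both strands for the consensus kB motif, which has 10 positions, and overlapping matches were joined. The motif was found in 9 of the 13 member promoters (69.2%), belonging to 7 of the 8 genes, against 9.96% of all 35116 promoters in the table. Several of these genes are textbook examples of NF-kB-bound promoters, so the share describes the set and is no result of the arrays. The sequences below are those of the 4 measured feedback genes and subunits with the lowest mean differences for which a promoter was held, and of REL and RELA, whose values lay near the scrambled array. Capitals mark kB matches, the sequence runs 5' to 3' toward the gene, and the first listed start of the gene is used.
TNFAIP3, chr6:137867009-137867258, plus strand: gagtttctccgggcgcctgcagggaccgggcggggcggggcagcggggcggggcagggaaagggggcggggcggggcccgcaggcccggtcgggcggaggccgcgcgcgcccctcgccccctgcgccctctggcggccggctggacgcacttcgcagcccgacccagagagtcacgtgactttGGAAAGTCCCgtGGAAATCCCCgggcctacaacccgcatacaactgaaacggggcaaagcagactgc
NFKBIA, chr14:35404750-35404999, minus strand: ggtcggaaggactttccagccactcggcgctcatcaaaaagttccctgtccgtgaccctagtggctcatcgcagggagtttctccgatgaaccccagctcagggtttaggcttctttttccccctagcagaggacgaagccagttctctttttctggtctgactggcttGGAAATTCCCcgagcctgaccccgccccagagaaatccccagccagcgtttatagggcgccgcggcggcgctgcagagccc
NFKBIZ, chr3:101827740-101827989, plus strand: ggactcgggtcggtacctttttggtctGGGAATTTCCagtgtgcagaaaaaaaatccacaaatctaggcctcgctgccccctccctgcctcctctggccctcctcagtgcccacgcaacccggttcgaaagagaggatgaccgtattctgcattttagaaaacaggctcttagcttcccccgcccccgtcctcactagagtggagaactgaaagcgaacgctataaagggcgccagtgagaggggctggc
NFKB1, chr4:102501109-102501358, plus strand: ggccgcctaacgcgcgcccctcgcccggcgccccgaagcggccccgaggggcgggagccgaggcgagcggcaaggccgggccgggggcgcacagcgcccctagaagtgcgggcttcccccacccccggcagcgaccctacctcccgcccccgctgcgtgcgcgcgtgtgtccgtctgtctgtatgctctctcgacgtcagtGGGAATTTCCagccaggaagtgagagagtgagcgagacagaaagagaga
REL, chr2:60881324-60881573, plus strand: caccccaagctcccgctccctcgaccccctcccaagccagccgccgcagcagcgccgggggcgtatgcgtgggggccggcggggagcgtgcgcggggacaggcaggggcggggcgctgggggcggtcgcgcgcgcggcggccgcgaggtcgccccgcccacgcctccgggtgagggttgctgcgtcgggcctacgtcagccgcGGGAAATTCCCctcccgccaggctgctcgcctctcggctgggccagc
RELA, chr11:65663858-65664107, minus strand: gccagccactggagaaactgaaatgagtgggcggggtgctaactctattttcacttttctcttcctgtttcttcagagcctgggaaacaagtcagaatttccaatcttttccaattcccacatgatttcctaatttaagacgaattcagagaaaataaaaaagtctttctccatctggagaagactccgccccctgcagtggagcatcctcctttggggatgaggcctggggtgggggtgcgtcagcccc

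In TNFAIP3 the matches were GGAAAGTCCC, beginning 67 bases before the start, and GGAAATCCCC, beginning 55 bases before it. NFKBIA had GGAAATTCCC at 81 bases, NFKB1 had GGGAATTTCC at 49 bases, and REL had the run GGGAAATTCCC at 47 bases, which matches on both strands. NFKBIZ had GGGAATTTCC at 223 bases before this start. The 2 RELA promoters held no match, which says only that these letters are not in this window. AGGCCT, the core of the motif known for ZFX and the same on both strands, lay in 2 of the 13 member promoters (the RELA and NFKBIZ windows shown) and in 9.20% of all promoters, and it did not overlap a kB match.

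ZFX was checked first. Its probe set (8166500) read 1430 in the control, 744.9 under H2, 749.6 under H3 and 995.6 under H4. All 3 knockdown arrays were thus below the control, with H2 and H3 nearly equal at 52.1% and 52.4% of the scrambled value and H4 at 69.6%. Any pair of arrays correlated at 0.991 to 0.996 over the 18417 genes, which are not independent replicates. Markers of medulloblastoma and cerebellar progenitors were uneven. The cerebellar genes ZIC1, ZIC2, PTCH1 and OTX2 read between 480.9 and 1536 on every array. GLI2 read 289.0 to 486.9, PAX6 201.6 to 301.4, BARHL1 200.5 to 208.7, MYCN 136.3 to 145.2 and SYP 123.5 to 148.5. ATOH1, a granule progenitor factor, read 107.1 to 126.2, close to the filter. GLI1, a Hedgehog effector, was under the filter, and NEUROD1 did not match a probe set of 1 symbol.

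The IkB genes and TNFAIP3 read less than the control under every hairpin, and the subunits other than NFKB1 were near it. TNFAIP3 had the lowest mean of the 9 genes, at 65.2% of the scrambled level, followed by NFKBIA at 73.7%, NFKBIZ at 79.4%, NFKB1 at 81.5% and NFKBIE at 85.5%. NFKB2 was at 91.6%, REL at 96.7%, RELB at 100.9% and RELA at 101.6%. In limma, none of the 9 passed an adjusted p of 0.05 over all genes tested (adjusted p = 0.9998 for each). The background was the same, with 0 of 13813 genes called (0.0%), 446 of them at an unadjusted p under 0.05, and 0 of the 9 members among those 446. Fewer cells that express a gene and less RNA per cell cannot be told apart in bulk RNA.

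TNFAIP3 encodes A20, an enzyme that edits ubiquitin chains on signalling proteins and so shuts the pathway down. Its probe set (8122265) read 2026 in the control, 1081 under H2, 1676 under H3 and 1274 under H4. The scrambled array was the highest, H2 and H4 were well under it, and H3 lay between. The mean log2 difference was -0.62 ± 0.32 (SD over n = 3 hairpins, SE 0.26), with a 95% interval in limma of -1.28 to 0.043. H2 stood at 53.4% of the control, H4 at 62.9% and H3 at 82.7%. An exact permutation test of which array stands alone gave p = 0.25 (two-sided), the smallest that 4 arrays can give.

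NFKBIA encodes IkB-alpha, the inhibitor that is destroyed and resynthesised in each round of activation. Its intensity (probe set 7978644) was 5916 in the control, 3654 under H2, 5222 under H3 and 4346 under H4. The order of the arrays was the same as for TNFAIP3, with H2 lowest and H3 nearest to the control. The mean log2 difference was -0.44 ± 0.26 (SD, n = 3; SE 0.21; limma 95% interval -0.96 to 0.080). The exact permutation test gave p = 0.5, since H2 was farther from the other arrays than the control was.

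NFKBIZ encodes IkB-zeta, a nuclear member of the family that works as a cofactor of NF-kB at a subset of its genes. Its probe set (8081386) read 1190 in the control, 750.2 under H2, 1089 under H3 and 1032 under H4. Most of its difference came from H2: the log2 differences were -0.67 under H2, -0.13 under H3 and -0.21 under H4. Their mean was -0.33 ± 0.29 (SD, n = 3), and without H2 it was -0.17.

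NFKBIE encodes IkB-epsilon, an inhibitor that acts later than IkB-alpha after a stimulus. It read 766.6 in the control, 677.8 under H2, 719.6 under H3 and 577.0 under H4 (probe set 8126666). Here H4 was lowest, unlike for NFKBIA, NFKBIZ and TNFAIP3, and H3 was again the nearest to the control. The mean log2 difference was -0.23 ± 0.16 (SD, n = 3; limma 95% interval -0.68 to 0.22), and it was -0.13 without H4.

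**Figure D1:**
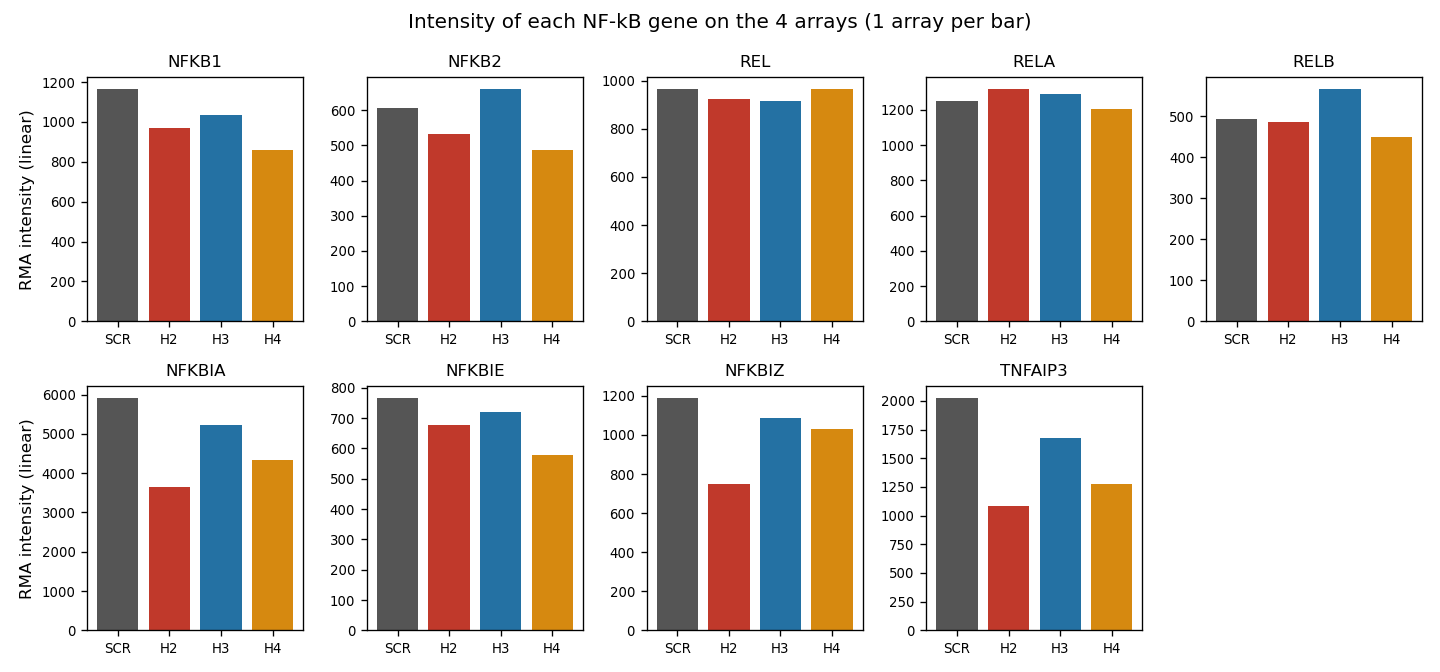
RMA intensity on a linear scale (vertical axes, each from 0 and on its own scale) of the 9 measured NF-kB genes on the scrambled (SCR), H2, H3 and H4 arrays, 1 array per bar and so with no error bar. For TNFAIP3 the control bar is the tallest at 2026 and the H2 bar the shortest at 1081, while the 4 bars of RELA lie between 1205 and 1320.

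Among the subunits, NFKB1 had the lowest mean difference. It encodes p105, which is cut to the DNA-binding subunit p50. Its probe set (8096635) read 1166 in the control, 967.5 under H2, 1034 under H3 and 859.1 under H4, so that the control was above all 3 others and H4 was lowest. The mean log2 difference was -0.29 ± 0.14 (SD, n = 3; limma 95% interval -0.71 to 0.12). The exact permutation test gave p = 0.25, the smallest possible here.

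NFKB2 encodes p100, the precursor of p52 in the non-canonical branch. It read 606.3 in the control, 533.1 under H2, 660.5 under H3 and 486.8 under H4. The control lay inside the range of the hairpins, with H3 above it and H2 and H4 below. RELB, the partner of p52, had the same order, with 493.4 in the control, 485.2 under H2, 567.3 under H3 and 448.6 under H4. The mean log2 differences were -0.13 ± 0.23 for NFKB2 and 0.013 ± 0.17 for RELB (SD, n = 3), smaller than the spread between hairpins. Without H3 they were -0.25 and -0.081, and without H4 they were -0.031 and 0.089.

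RELA encodes p65, the main transactivating subunit of the canonical pathway. It read 1251 in the control, 1320 under H2, 1290 under H3 and 1205 under H4, so the control again lay among the hairpins. REL, which encodes c-Rel and is best known from lymphocytes, read 965.9 in the control and 923.0, 916.4 and 963.3 under H2, H3 and H4. All 3 REL values were under the control, but H4 by only -0.004 on the log2 scale. The mean log2 differences were 0.022 ± 0.069 for RELA and -0.049 ± 0.039 for REL (SD, n = 3). These small values do not show equal levels, since the limma 95% intervals ran from -0.33 to 0.37 for RELA and from -0.39 to 0.30 for REL.

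**Figure D2:**
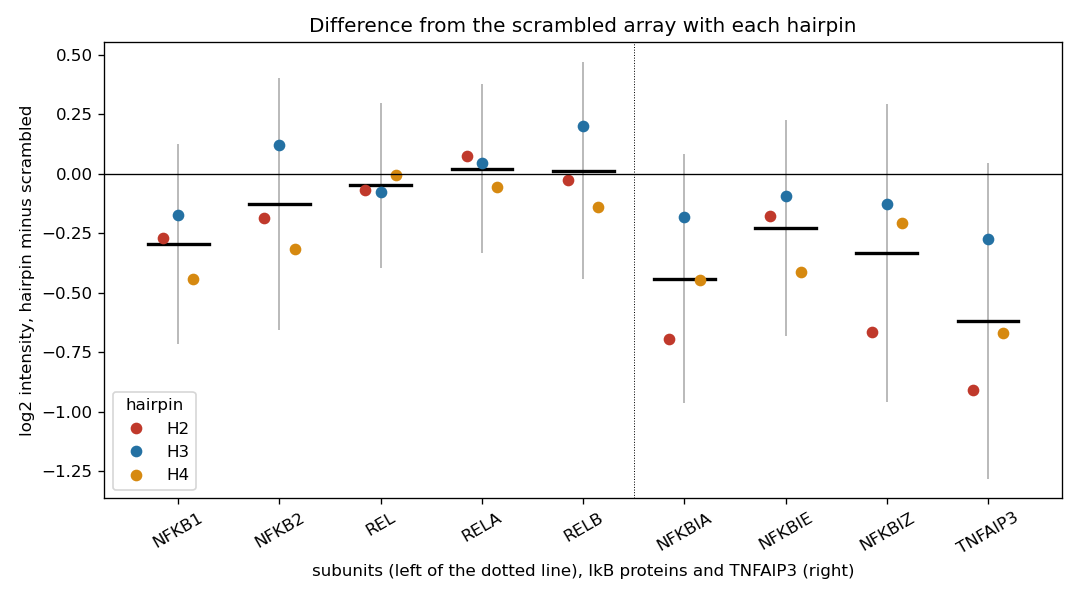
Log2 intensity of each hairpin array minus the scrambled array (vertical axis) for the 5 subunit genes and the 4 measured inhibitor and feedback genes, with points for H2, H3 and H4, black bars for their mean and grey lines for limma's 95% interval. The 12 points right of the dotted line are all below 0, those of RELA, RELB and NFKB2 lie on both sides of it, and every grey line crosses it.

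Counted by direction, 6 of the 9 genes were below the scrambled array with all 3 hairpins: NFKB1, REL, NFKBIA, NFKBIE, NFKBIZ and TNFAIP3. Over all genes tested this was so for 30.6%. None of the 9 was above it with all 3, against 16.9% of all genes. The members were chosen with earlier results of these data known, so these counts and those by size are not independent of these data. Scaling mattered for REL, which was not below the control with all 3 hairpins under any of 4 other scalings, leaving 5 members. Centring each array on the median of its probe sets also turned the shares of all genes to 23.3% below and 23.6% above, and centring on the median of the genes with 1 symbol turned them to 19.4% and 26.9%. The median of the 9 mean log2 differences was -0.23, beside -0.035 over all genes tested, and it was -0.13 without H4.

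By size, 0 members were at least 1.5-fold below the control with every hairpin, where the background was 0.311% (43 genes). Without H3, TNFAIP3 was. With H2, 3 members were at least 1.5-fold lower (TNFAIP3, NFKBIA and NFKBIZ), against 5.61% of all genes. With H4, TNFAIP3 alone was, against 2.17%, and with H3, 0 of the 9 were, against 1.14%. Each of these is 1 array against 1 array and has no test. All 3 comparisons share the scrambled array.

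The size of the differences varied between hairpins. With ZFX at 52.1% of the control under H2 and 52.4% under H3, TNFAIP3 differed from the control by -0.91 with H2 and by -0.27 with H3 on the log2 scale, and NFKBIA by -0.70 and -0.18. H4, with ZFX at 69.6%, lay between them for both genes, at -0.67 and -0.45. The 4 inhibitor and feedback genes had a median log2 difference of -0.68 under H2, -0.15 under H3 and -0.43 under H4. For the 5 subunits it was -0.066, 0.044 and -0.14. Over all genes tested, 5.61% were at least 1.5-fold below the control with H2, 1.14% with H3 and 2.17% with H4. The correlation with the scrambled array was 0.991 for H2, 0.996 for H3 and 0.995 for H4. The order of the hairpins for TNFAIP3 and NFKBIA was thus also that of the arrays as a whole. With 1 array per hairpin, no test of a difference between hairpins can be made.

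Set against RELA on the same array, the IkB genes and TNFAIP3 were lower with every hairpin. Adding a constant to an array's log2 values cannot alter this comparison. The log2 difference of TNFAIP3 minus that of RELA was -0.98 under H2, -0.32 under H3 and -0.61 under H4. For NFKBIA it was -0.77, -0.22 and -0.39, and for NFKBIE it was -0.25, -0.14 and -0.36. NFKBIZ gave -0.74, -0.17 and -0.15, and NFKB1 gave -0.35, -0.22 and -0.39. The same difference had both signs among the hairpins for REL, RELB and NFKB2. These are unequal differences within an array and do not show that RELA stayed constant. RELA had the highest mean difference of the measured genes, so every other mean is lower when set against it. No other reference was used, and the choice matters. NFKBIE differed from the control by -0.18, -0.091 and -0.41 with H2, H3 and H4, less than NFKB1 did (-0.27, -0.17 and -0.44).

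The rest of the pathway was read from 4 lists, none of which had a member past the threshold in limma. The lists were also chosen with earlier results of these data known, which limits what their shares show. Of 15 tested receptors and adaptors, 7 were below the control with all 3 hairpins (46.7%, beside 30.6% of all genes tested) and 2 above (13.3%, beside 16.9%), with a median mean log2 difference of -0.21. TLR3, the sensor of double-stranded RNA, read 731.2 in the control and 406.7, 607.5 and 544.3 under H2, H3 and H4. TNFRSF1A, the main receptor for tumour necrosis factor, read 1461 in the control and 992.3, 1305 and 1232 under H2, H3 and H4. TRAF5, an adaptor of that receptor family, had log2 differences of -0.76, -0.058 and -0.17, so that most of its mean came from H2. IRAK1, a kinase of the interleukin 1 and Toll-like receptor route, went the other way, with 588.1 in the control and 803.9, 747.5 and 716.1 under H2, H3 and H4 (mean log2 difference 0.36 ± 0.084, SD, n = 3). TRADD, an adaptor of the receptor for tumour necrosis factor, was the other gene above the control.

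The kinases and ubiquitin machinery that release NF-kB were close to the background in median and in the share below the control. Of 17 tested genes, 6 were below the control with all 3 hairpins (35.3%, beside 30.6% of all genes tested) and 0 above (beside 16.9%). Their median was -0.018, beside -0.035 over all genes tested. The 3 core IKK genes were among the 6: CHUK, for IKK-alpha, was at 85.9%, 90.6% and 73.7% of the control with H2, H3 and H4, IKBKB, for IKK-beta, at 84.5%, 99.4% and 73.2%, and IKBKG, for the scaffold NEMO, at 95.7%, 89.4% and 74.6%. H4 was the lowest array for each of them. IKBKE, an inducible IKK-related kinase, had the largest mean difference of the list, reading 710.5 in the control and 351.5, 574.7 and 455.3 under H2, H3 and H4 (-0.65 ± 0.35, SD, n = 3). Its order of arrays was that of TNFAIP3.

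Of 13 other tested inhibitors, 4 were below the control with all 3 hairpins (30.8%, beside 30.6% of all genes tested) and 2 above (15.4%, beside 16.9%), with a median of -0.006. These shares are those of the background. The 4 were ZC3H12A, which encodes the ribonuclease Regnase-1 that degrades inflammatory mRNAs, CYLD, a deubiquitinase, BCL3, a nuclear IkB protein, and TNIP1, a partner of A20. ZC3H12A was at 68.5%, 85.2% and 72.3% of the control with H2, H3 and H4, and BCL3 at 68.3%, 87.4% and 85.1%. CYLD had another order, at 73.8%, 72.7% and 94.2%. TNIP1 had log2 differences of -0.33, -0.074 and -0.40. The 2 above were TNIP2, another A20 partner, and PDLIM2. NFKBIB, which encodes IkB-beta, lay on both sides of the control.

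Of the 4 lists, known NF-kB target genes outside the set had the lowest median, -0.46 over 30 tested genes. Of these, 15 were below the control with all 3 hairpins (50%, beside 30.6% of all genes tested) and 1, CD83, above (3.33%, beside 16.9%). In limma, 7 had an unadjusted p under 0.05 (23.3%, beside 3.23% of all genes tested). The list was chosen with earlier results of these data known, so its shares are not independent of these data. The cytokines IL1B and IL1A and the complement component C3 were at least 1.5-fold lower with every hairpin (3 of 30, beside 0.311% of all genes tested). IL1B read 642.7 in the control and 151.7, 162.8 and 200.4 under H2, H3 and H4, and IL1A read 2393 against 1270, 1243 and 918.9. For these 2 genes H3 was as far from the control as H2, unlike for TNFAIP3 and NFKBIA. C3 read 1236 in the control and 260.7, 554.8 and 402.7 under H2, H3 and H4.

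Among the other targets below the control with all 3 hairpins, CXCL10, TNF, CCL5 and PLAU had the lowest means. TNF, the cytokine that both activates NF-kB and is made in response to it, read 390.9 in the control and 153.3, 322.3 and 191.7 under H2, H3 and H4. The chemokine CXCL10 was at 22.2%, 87.9% and 37.6% of the control, again with H3 nearest to it. CCL5, another chemokine, was at 40.5%, 66.7% and 72.9%, and PLAU, the protease urokinase, at 70.1%, 64.9% and 49.6%. The list's median was -0.64 under H2, -0.048 under H3 and -0.49 under H4, so with H3 the typical target differed little from the control.

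**Figure D3:**
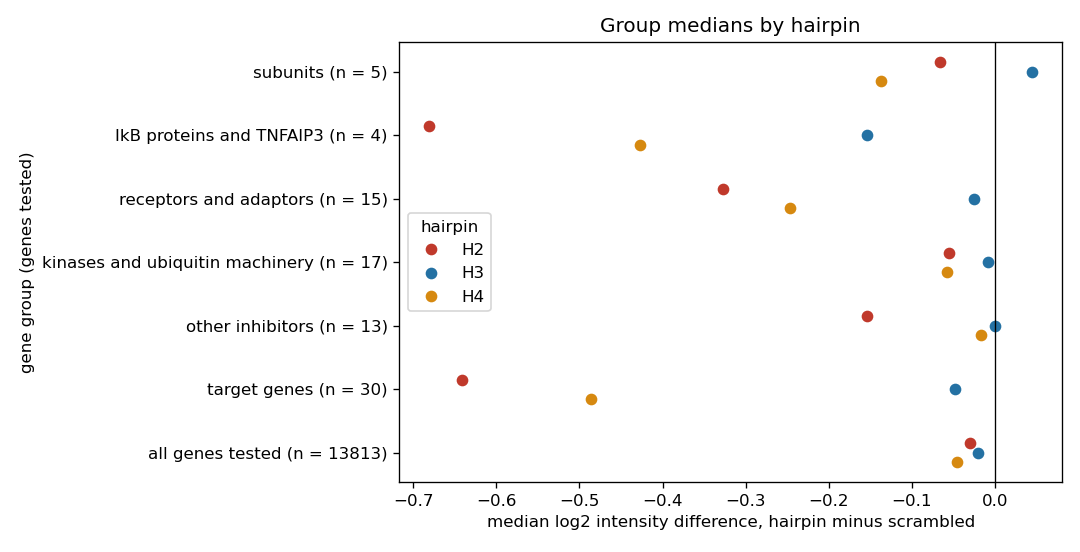
Median log2 intensity difference from the scrambled array (horizontal axis) of the genes tested in each group, with a point for H2, H3 and H4, 1 array each. The inhibitor and feedback genes and the target list reach -0.68 and -0.64 with H2, while the medians of all 13813 genes lie between -0.046 and -0.021.

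Markers of blood cells were read beside these groups because NF-kB genes are prominent in such cells. The general leukocyte marker PTPRC read 41.9 to 43.0 on all 4 arrays, and AIF1, MS4A1, CD3E, ITGAM and CD53 were under the filter too. Of 12 markers with a probe set, 6 were tested. LCP1 and CSF1R were below the control with all 3 hairpins (33.3%, beside 30.6% of all genes tested) and 0 were above (beside 16.9%). The summed intensity of all 12 markers, tested or not, was 5736 in the control and 3678, 5783 and 4713 under H2, H3 and H4. LCP1, an actin-bundling protein also made by many tumour lines, read 1140 in the control and 404.3, 754.6 and 433.7 under H2, H3 and H4. CSF1R was at 73.0%, 74.9% and 90.0% of the control with H2, H3 and H4. CD68 was at 72.1%, 126.5% and 88.4%, and LAPTM5 at 33.1%, 77.2% and 105.0%. CD14 and TYROBP lay between 91.9% and 102.4% with every hairpin. The part of these markers in the NF-kB values was not tested.

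Quantile normalization and cyclic loess left the order of the 9 genes largely as it was. Centring subtracts a constant from all log2 values of an array, so it could not change that order. Over the 4 scalings other than the deposited one, TNFAIP3 was the lowest of the 9 genes, with mean log2 differences of -0.56 to -0.59. NFKBIA followed at -0.39 to -0.45. RELA and RELB were above 0 under each of these scalings, and REL moved from -0.049 as deposited to 0.0055 with centring on the genes with 1 symbol.

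**Figure D4:**
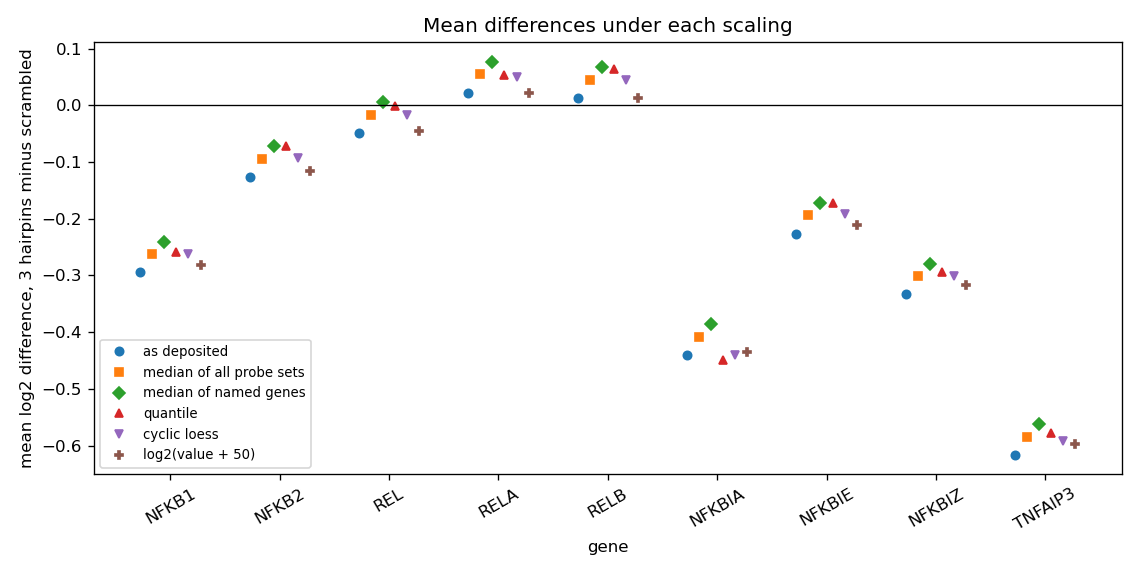
Mean log2 difference of the 3 hairpin arrays from the scrambled array (vertical axis) for each of the 9 genes, as deposited, under 4 other scalings and with 50 added before log2. TNFAIP3 is lowest under each setting, and REL is the gene whose points fall on both sides of 0.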

How the data were processed

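Each of 33297 probe sets has 1 deposited intensity per array. These intensities came from RMA run by the authors, according to the submitters' processing notes. Neither the RMA version nor a genome build is given in the sources used here. The intensities are on a linear scale, so log2 was taken. RMA gives all arrays nearly the same distribution and would hide a change in total RNA. No detection call, scan date or slide was used, so batches could not be examined.

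Probe sets with exactly 1 symbol (19460) were used, the one with the highest mean per gene. Genes under the 25th percentile of mean log2 intensity, 6.78, were left out. The 3 hairpin arrays, of 1 labelled genotype, were set against the scrambled array with limma 3.58.1 in R 4.3.3 (lmFit, eBayes with an intensity trend, 2 residual degrees of freedom, Benjamini-Hochberg over 13813 genes, threshold 0.05), and the lone array was assumed to vary like the others. On simulated data with known changes, the fit was required only to recover the mean differences. No condition was set on how many genes it called. Limma's p-values rest on the spread between the 3 hairpin arrays, moderated over genes, to which the lone control array adds nothing. The number of arrays limits the precision. Errors are SDs over hairpins and leave out that of the scrambled array. Single hairpins have no test, and a 1.5-fold difference was counted.

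The members and lists were chosen with earlier results of these data known. From each list the text names genes 1.5-fold away with every hairpin and up to 4 others, by mean difference, on 1 side with all 3; CD83, NFKBIB, PDLIM2, TNIP2, TRADD and the single marker genes were named after their values were seen. Lists were described by counts and medians. Alternatives were other scalings, filters, probe set rules, an offset of 50, no trend, and leaving out each hairpin. Python 3.11.15, pandas 2.3.3 and matplotlib 3.10.9 were used.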

Additional observations from a re-analysis of the deposited data

How the results depend on the processing

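Under 12 alternatives limma called 0 genes each time, with 248 to 691 genes at an unadjusted p under 0.05, as fewer or more genes were tested. The count of members below the control with all hairpins used ranged from 5 to 8, and their median from -0.29 to -0.13. The count of members at least 1.5-fold lower with all hairpins used was 0 or, without H3, 1 (TNFAIP3). It ranged from 0 to 1 when 1 hairpin was left out. Of 108 member differences, 105 kept their sign and their side of the threshold. The other filters, the mean over probe sets and the fit without a trend leave each member's difference unaltered. These settings could therefore change no sign. In limma the adjusted p of every member was 0.9989 or higher throughout, so its side of the threshold was hardly at stake. The 3 that changed sign were RELA without H2 (-0.0052, against 0.0608 without H4), RELB without H3 (-0.0808, against 0.0885 without H4) and REL with each array centred on the median of the genes with 1 symbol (0.0055), a scaling chosen after seeing the data. The first 2 depended on which hairpin was left out: RELA stayed above 0 without H3 (0.0112), and RELB without H2 (0.0319). The scaling under which REL changed sign raised the mean of every member, with NFKB1 going from -0.2944 to -0.2404. No paired analysis was possible because there is a single control array and the labels number no replicates. The lone control array and 2 residual degrees of freedom limit what the test can call.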
